A study of Caenorhabditis elegans with 12 samples.

Results

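Lysozymes are enzymes that cut the cell wall of bacteria, and in the nematode Caenorhabditis elegans, which feeds on bacteria, they serve both digestion and defence. The worm has 2 families of them. The lys- genes encode lysozymes of the type found in protists, and the ilys- genes encode the invertebrate type. Several are made in the intestine, where infection, starvation and the insulin, p38 MAP kinase and TGF-beta pathways are known to change their transcripts.

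The genes described are lys-1 to lys-8, lys-10 and ilys-5, which were found by gene name on the array and make 10 of 20018 genes measured. They were chosen by earlier results from these same arrays, over all 4 conditions and 3 strains, so their differences are given as a description and support nothing by themselves. Lysozyme genes left out of that choice, which are lys-9, ilys-1 to ilys-4 and ilys-6, brought the lysozymes on the array to 16. Each gene was read by 1 feature of 6 probes except ilys-5, with 2 features for its transcripts.

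The study hybridised total RNA of whole worms to 12 single-colour NimbleGen arrays, 1 per combination of strain and condition. Wild-type worms were of strain N2. The mutants were LS292 with dys-1(cx18), a mutant of the worm's dystrophin gene, and MT4930 with ced-1(n1995), a mutant of a receptor for the engulfment of dying cells. Worms synchronised as dauer larvae, the resting stage, were loaded onto fresh growth medium and flown for 16.5 days at 23 °C, and were frozen 7 h after landing. In static flight they were weightless and received 1.92 mGy, and in the centrifuged flight they turned at 1 g and received 2.27 mGy. The ground control sat in a static slot on Earth for the same 16.5 days, started 2 days later, and its labels give the same 23 °C and 7 h. The transport control never left the home laboratory's incubator, and for how long it was kept there and at what stage its worms were collected is not given in the sources used here. Its temperature and its time of collection are not labelled either. The other 3 conditions are called carried below. No array has a repeat of its own strain and condition, so the spread within a condition (SD, n = 3) is a spread between strains, and nothing in the labels says that the cultures were otherwise separate.

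Mean intensity was 1018.9 to 1159.6 on 11 arrays and 902.3 on the ced-1 ground control array. All 14 intestine markers listed for this work, among them the gut esterase gene ges-1 (mean log2 intensity 10.64) and the gut transcription factor gene elt-2 (11.26), gave a mean signal above the median of all values, 7.70. Because whole worms were used, fewer cells of a type and less RNA per cell cannot be told apart. The files carry no detection call. The lys-10 feature stayed between 55.7 and 100.6 intensity units, close to the lowest values on the arrays (39.8), and it alone of the 16 genes is missing from the series value table, so little can be read from it.

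Of the 10 genes, 4 were lower in the transport control than on any carried array, in every strain. These were lys-4, lys-5 and lys-6 of the protist type and ilys-5 of the invertebrate type. The other 6, with lys-1, lys-7 and lys-8 among them, kept transport control values within or near the range of the carried arrays.

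On the lys-4 feature, log2 intensity in static flight was 13.26, 12.87 and 12.85 (wild-type array first, then that of dys-1, then that of ced-1). In the same order of strains, it was 13.29, 12.49 and 13.43 in the centrifuge and 12.91, 13.29 and 13.12 in the ground control. In the transport control it was 9.03, 9.42 and 9.43. The 9 carried arrays thus spanned less than 1 log2 unit, and the 3 transport control arrays lay more than 3 units under the lowest of them. The mean was 13.06 ± 0.30 (SD, n = 9) in the carried arrays and 9.29 ± 0.23 (SD, n = 3) in the transport control, a difference of −3.77 ± 0.22 (SE), or 13.6-fold.

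On ilys-5, log2 intensity averaged over both features was 14.05, 13.63 and 13.97 in static flight, in the same order of strains. It was 14.05, 13.07 and 14.16 in the centrifuge and 13.61, 14.22 and 14.08 in the ground control. In the transport control it was 10.70, 9.72 and 11.33, with a wider spread between strains than in any carried condition. The difference was −3.29 ± 0.26 (SE), or 9.77-fold, and ran from −3.92 in dys-1 to −2.74 in ced-1. Both features shared it, and whether their probes tell the transcripts apart was not tested. The feature for transcript a was at 10.38 to 11.92 in the transport control and 13.57 to 14.69 in the carried arrays. That for transcript b was at 9.05 to 10.75 and 12.57 to 13.87.

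On lys-5, log2 intensity was 8.92, 9.58 and 9.04 in static flight and 10.14, 9.69 and 9.92 in the centrifuge. It was 9.46, 9.59 and 9.34 in the ground control and 6.79, 6.48 and 6.19 in the transport control. The transport control arrays were again below all the others, by −3.03 ± 0.20 on average (SE, 8.17-fold). Their signal, down to 72.9 intensity units, was near the dim end of the array, where a log2 difference understates a change.

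On lys-6, log2 intensity was 8.20, 7.63 and 7.81 in static flight and 9.24, 7.82 and 8.55 in the centrifuge. It was 8.49, 8.73 and 9.72 in the ground control and 6.73, 6.64 and 7.03 in the transport control. The difference between transport control and carried arrays was −1.66 ± 0.26 (SE, 3.17-fold), the smallest of the 4, and the carried arrays themselves spread over about 2 log2 units. All 4 genes kept groups that did not overlap, as did 4.69% of all genes.

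**Figure D1:**
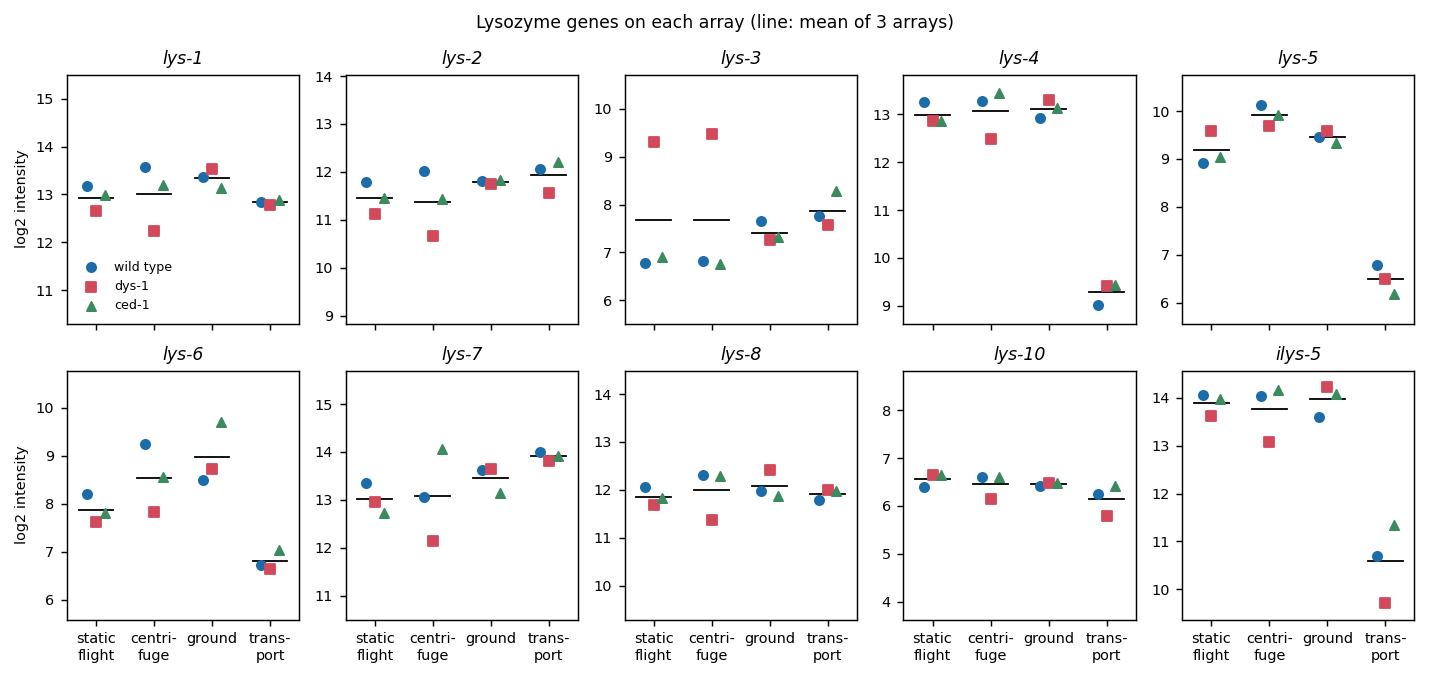
Log2 intensity of the 10 lysozyme genes (vertical axes, all of the same height in log2 units) on the 12 arrays by condition, with a symbol for each strain and a line at the mean of 3 arrays. lys-4, lys-5, lys-6 and ilys-5 fall in the transport control in all strains, and lys-3 stands high in flown dys-1 worms, at 9.31 and 9.47.

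In the limma fit over all genes, the same 4 were called lower in the transport control than in the carried worms and 0 were called higher. Of all genes, 12.5% were called in that comparison and 6.47% were called lower, so many transcripts other than lysozymes also moved. Set against the transport control one condition at a time, 4 of the 10 genes were called higher in the ground control, beside 3.09% of all genes. The counts were 4 in static flight, beside 8.73%, and 4 in the centrifuge, beside 2.81%. These comparisons share the transport control arrays. lys-4 was higher than in the transport control by 3.70 ± 0.27 in static flight, 3.78 ± 0.27 in the centrifuge and 3.82 ± 0.27 in the ground control (log2, SE). ilys-5 was higher by 3.30 ± 0.32, 3.18 ± 0.32 and 3.39 ± 0.32. lys-6 differed more between conditions, at 1.08 ± 0.32, 1.74 ± 0.32 and 2.18 ± 0.32. Its call in static flight was lost when any 1 array of static flight or of the transport control was left out (limma adjusted p = 0.0628 to 0.166), and that in the centrifuge without the wild-type centrifuge array (limma adjusted p = 0.0508).

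When both flown conditions were set against both unflown ones, 3 of the 10 genes were called higher, beside 4.28% of all genes. They were lys-4 at 1.83 ± 0.19, lys-5 at 1.57 ± 0.17 and ilys-5 at 1.54 ± 0.22 (log2, SE). The unflown side of that comparison holds the transport control, and the ground control arrays of lys-4 and lys-5 lay within the range of the flown arrays. For ilys-5 the dys-1 ground control array (14.22) lay just above the highest flown one (14.16). The mean of lys-4 was 13.00 ± 0.23 in static flight, 13.07 ± 0.51 in the centrifuge and 13.11 ± 0.19 in the ground control (SD, n = 3). That of ilys-5 was 13.88 ± 0.23, 13.76 ± 0.60 and 13.97 ± 0.32.

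The other lysozymes took different courses. lys-7, an intestinal lysozyme known as a target of the transcription factor DAF-16, was at 14.005, 13.82 and 13.91 in the transport control. Its carried arrays ran from 12.14 through a median of 13.15 to 14.06, so that the transport control was higher than 8 of 9 carried arrays. The difference was 0.72 ± 0.29 (SE) and was not called by limma, but it was called without the ced-1 centrifuge array, which held the highest value (0.92, limma adjusted p = 0.0109). lys-2 was at 12.06, 11.55 and 12.20 in the transport control and at 10.66 to 12.01, median 11.75, in the carried arrays. That difference, 0.40 ± 0.20 (SE), was not called.

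lys-1, a lysozyme known to respond to infection with Serratia, was at 12.85, 12.78 and 12.89 in the transport control. Its carried arrays ran from 12.24 to 13.57 with a median of 13.17, and the difference was −0.26 ± 0.23 (SE). lys-8, whose transcript is known to depend on the TGF-beta ligand DBL-1, was at 11.79, 11.99 and 11.98. Its carried arrays ran from 11.37 to 12.41 with a median of 11.98, on both sides of the transport control. The spread of lys-1 between strains was 0.06 in the transport control and 0.69 in the centrifuge (SD, n = 3).

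The order of genes along the chromosome did not sort these courses in a single way. In the RefSeq gene table (assembly WBcel235), lys-4, lys-5 and lys-6 are neighbours among the coding genes, and all 3 were low in the transport control. lys-1, lys-2 and lys-3 are neighbours too, and their differences were −0.26, 0.40 and 0.28. ilys-1, ilys-2 and ilys-3 form a further run of neighbours. Their differences were −0.60, −1.69 and −0.997, and only that of ilys-2 was called. ilys-5 has no lysozyme beside it. Probe sequences were not analysed here, so signal shared between related neighbours was not tested.

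Lysozyme genes outside the chosen 10 were tested in the same fit. Of these 6 genes, 1 was called lower and 1 higher in the transport control than in the carried worms, beside 12.5% of all genes called in either direction. ilys-2 was at 7.485, 7.496 and 6.48 in the transport control and at 8.11 to 9.94, median 8.90, in the carried arrays. Its transport control arrays all lay below the carried ones, as in 4.69% of all genes. ilys-2 fell by 1.69 ± 0.29 (SE, limma adjusted p = 0.00136, lower in all 3 strains). ilys-4 was at 9.14, 9.60 and 9.65 in the transport control and at 8.12 to 8.996 in the carried arrays. It rose by 0.96 ± 0.20 (SE, limma adjusted p = 0.00692, higher in all 3 strains), a call lost without the dys-1 or the ced-1 transport control array (limma adjusted p = 0.0596 and 0.0815). ilys-3, known to act in the pharynx and gut in the lysis of ingested bacteria, was at −0.997 ± 0.34 (SE, limma adjusted p = 0.0712), and it passed without the ced-1 static array or the dys-1 centrifuge array (limma adjusted p = 0.0248 and 0.0425). Without the wild-type transport control array it was −0.64 (limma adjusted p = 0.335). The differences of these 6 genes split evenly, with 3 above 0, and their median was −0.28. The median was −0.30 over the chosen 10, with 3 above 0, and 0.0045 over all genes.

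**Figure D2:**
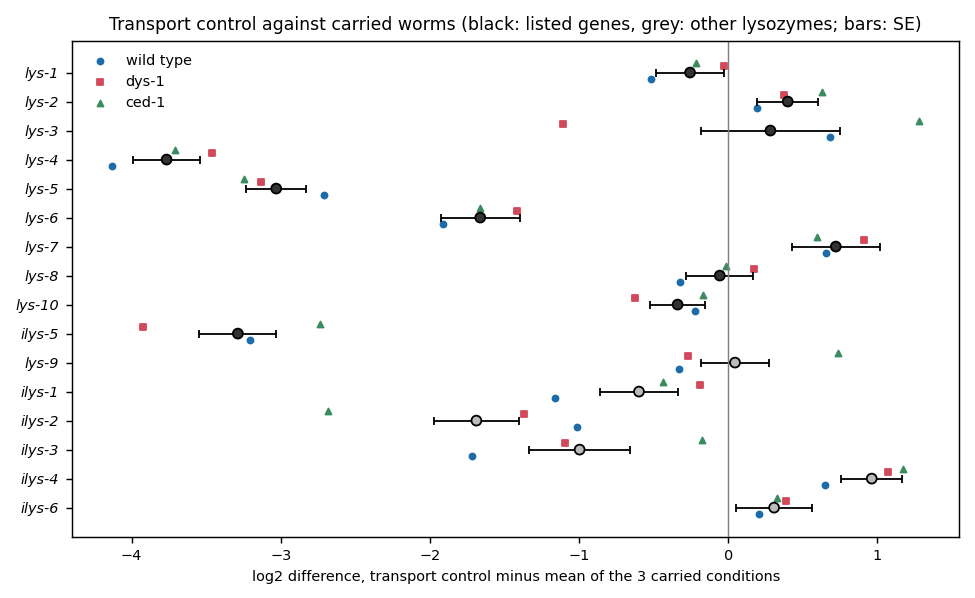
Log2 difference between the transport control and the mean of the 3 carried conditions (horizontal axis) for 16 lysozyme genes, with the limma estimate and its SE and small symbols for each strain's own difference. lys-4, ilys-5 and lys-5 stand at −3.77, −3.29 and −3.03, with the 3 strains on the same side.

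Some genes of the tissues that make or surround these enzymes also moved between the transport control and the carried worms. The marker lists were chosen with earlier results of these data known, so their calls are given as a description. Of the 14 intestine markers, 2 were called lower and 0 higher, and 3 of 14 differences were above 0. Of all genes, 6.47% were called lower and 12.5% were called in either direction. The gut sodium-proton exchanger gene nhx-2 fell by 1.61 ± 0.19 (SE, limma adjusted p = 6.26e-05) and the gut proton pump subunit gene vha-6 by 1.35 ± 0.20 (SE, limma adjusted p = 0.000468). The other intestine markers were not called, and ran from pept-1 at −0.58 ± 0.21 to elt-7 at 0.39 ± 0.25. Among them were ges-1 (0.13 ± 0.21) and elt-2 (−0.14 ± 0.19). The mean log2 intensity of the intestine list was 11.26 to 11.29 in the transport control and 11.41 to 11.86 in the carried arrays. Its summed intensity was 118300 to 127000 and 111000 to 162700.

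Sperm markers moved most among the marker lists, which were chosen with earlier results of these data known. Of 5, 4 were called lower in the transport control, beside 6.47% of all genes called lower and 12.5% called in either direction. The sperm phosphatase gene gsp-4 was at −2.37 ± 0.20 (SE, limma adjusted p = 5.4e-06). The summed intensity of the list was 1446 to 2129 in the transport control and 4126 to 15210 in the carried arrays. Of the 5 epidermis markers 2 were called lower, with the adult collagen gene col-19 at −3.80 ± 0.30 (SE, limma adjusted p = 3.29e-06). The summed intensity was 7181 to 8926 against 9716 to 30000. Of 5 germline and oocyte markers 1 was called lower, and the list had a summed intensity of 3530 to 17900 against 7743 to 18760. Of 7 neuron markers 2 were called higher, with a summed intensity of 34910 to 55740 against 11120 to 44280. Of 4 pharynx markers 1 was called higher (12380 to 22330 against 8143 to 16830), and of 5 body wall muscle markers 0 were called (22460 to 23690 against 18630 to 35140). The lowest intensity of any feature on any array was 39.8, so a marker signal above 0 does not by itself show that its transcript was present. The part of these shifts in the lysozyme differences was not tested. lys-4, lys-5, lys-6 and ilys-5 together averaged −3.16 to −2.73 log2 units relative to their carried mean on the transport control arrays, where the intestine list was at −0.37 to −0.34 relative to its own.

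**Figure D3:**
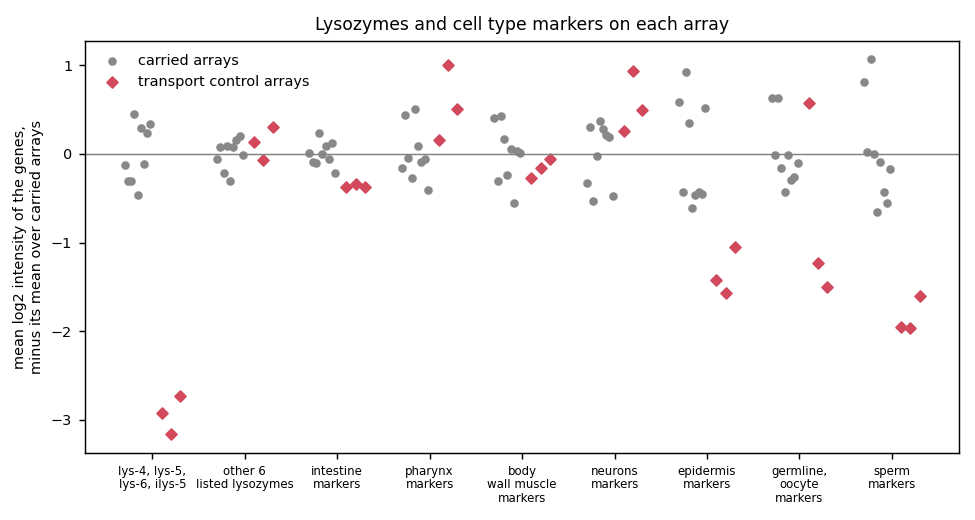
Mean log2 intensity of 2 groups of lysozymes and of each cell type's markers (vertical axis, relative to the mean over carried arrays), with grey points for the 9 carried arrays and red diamonds for the 3 transport control arrays. The 4 lysozymes sit at −3.16 to −2.73 in the transport control, intestine markers at −0.37 to −0.34 and sperm markers at −1.97 to −1.60.

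Other classes of defence gene, in lists also chosen with earlier results known, did not share 1 direction. Between the transport control and the carried worms, 12.5% of all genes were called and 6.47% were called lower. Of 26 saposin-like spp- genes, a class that holds pore-forming proteins of the gut, 2 were called higher and 3 lower in the transport control, and spp-20 rose by 2.31 ± 0.25 (SE, limma adjusted p = 2.53e-05). Of 28 antimicrobial peptide genes 2 were called higher and 2 lower, and the caenacin gene cnc-9 rose by 2.00 ± 0.26 (SE, limma adjusted p = 0.00017). Of 6 thaumatin-like thn- genes 2 were called lower and 0 higher. thn-2 fell by 2.09 ± 0.23 (SE, limma adjusted p = 3.91e-05) and thn-1 by 1.60 ± 0.25 (SE, limma adjusted p = 0.000672). Among 18 regulators of intestinal defence genes, the p38 kinase gene pmk-1 and daf-16 included, 1 was called. That was the insulin receptor gene daf-2, which rose by 0.88 ± 0.23 (SE, limma adjusted p = 0.0228), and its call was lost without any 1 transport control array (limma adjusted p = 0.0523 to 0.191). 2 of the 18, elt-2 and elt-7, are also among the intestine markers.

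The genes nearest in pattern to the most variable lysozymes were found by the root mean square (RMS) difference between centred log2 profiles over the 12 arrays. For lys-4 they were F47B3.2 (0.63 log2 units), the sperm gene msp-3 (0.66), C04F12.7 (0.67), Y43F8A.2 (0.70) and mpst-5 (0.70). For ilys-5 they were C04F12.7 (0.51), Y43F8A.2 (0.54), spch-1 (0.57), C50E10.1 (0.57) and ssq-3 (0.57). For lys-5 they were C50B6.7 (0.68), F47B3.2 (0.69), mpst-5 (0.70), nhx-2 (0.71) and clc-10 (0.71). All of them were lower in the transport control than in the carried arrays, by 1.61 to 2.97 log2 units. That direction follows from choosing them for likeness to lysozymes that are themselves low there. Among the lysozymes themselves the RMS difference was 0.43 between lys-4 and ilys-5, 0.53 between lys-4 and lys-5 and 0.61 between ilys-5 and lys-5. lys-6 lay 0.84 to 1.03 from these 3. msp- genes are nearly identical in sequence, so the value of msp-3 is uncertain.

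Between the carried conditions none of the 10 genes passed the test. By limma 0 of the 10 genes were called between static flight and ground control, where 0.21% of all genes were, and 1 had an unadjusted p under 0.05, as did 11.7% of all genes. Between static and centrifuged flight 0 were called, beside 0.005% of all genes, and 1 had an unadjusted p under 0.05, as did 12% of all genes. Between the centrifuge and the ground control 0 were called, beside 0.035%, and 0 had an unadjusted p under 0.05, against 6.02% of all genes.

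lys-5 and lys-6 were the genes with carried conditions that did not overlap. The mean log2 intensity of lys-5 was 9.92 ± 0.22 in the centrifuge, 9.46 ± 0.13 in the ground control, 9.18 ± 0.35 in static flight and 6.49 ± 0.30 in the transport control (SD, n = 3). Its centrifuge arrays were all above those of static flight and of the ground control, while static flight and ground control overlapped. Static flight differed from the centrifuge by −0.74 ± 0.24 (SE, not called). The mean of lys-6 was 8.98 ± 0.65 in the ground control, 8.54 ± 0.71 in the centrifuge, 7.88 ± 0.29 in static flight and 6.80 ± 0.20 in the transport control. The centrifuge overlapped both other carried conditions, and in the wild type it was above the ground control (9.24 and 8.49). Static flight lay below the ground control in every strain, by −1.10 ± 0.32 on average (SE, not called), and it ran from −0.76 to −1.50 with single arrays left out. In all, 1 of the 10 genes had no overlap between static flight and centrifuge, as did 13.4% of all genes. It was 1 between static flight and ground control (14.1% of all genes) and 1 between centrifuge and ground control (10.1% of all genes).

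1 array was low for many of the lysozymes. The dys-1 centrifuge array held the lowest value of all 12 arrays for lys-1, lys-2, lys-7 and lys-8, which is 4 of the 10 genes beside 6.01% of all genes. It held the lowest of the carried arrays for those and for lys-4, lys-10 and ilys-5, 7 of the 10 genes beside 11.9% of all genes. lys-7 stood at 12.14 there, against 12.73 on the next lowest carried array. lys-2 stood at 10.66 against 11.13, and ilys-5 at 13.07 against 13.61. The next lowest carried array was dys-1 in static flight for lys-1, lys-2 and lys-8 (12.65, 11.13 and 11.68). In dys-1 the flown mean minus the unflown mean was −0.71 for lys-1, −0.755 for lys-2, −1.18 for lys-7 and −0.67 for lys-8. For the rest of the 10 genes it was above 0. Of the intestine markers, 2 of 14 had their lowest carried value on the dys-1 centrifuge array, and their mean log2 intensity of 11.63 was within the carried range. Their summed intensity (111000) and that of the saposin-like genes (67860) were the lowest of the 12 arrays. The mean intensity over all features, 1116.3, was within the range of the others. The part of these levels in the lysozyme values was not tested. This observation was made after the values were seen.

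lys-3 stood apart in flown dys-1 worms, where its log2 intensity was 9.31 in static flight and 9.47 in the centrifuge, while on the other 10 arrays it ran from 6.76 through a median of 7.29 to 8.28. In the wild type it was 6.78 and 6.83 in flight, 7.65 in the ground control and 7.77 in the transport control. In ced-1 it was 6.91 and 6.76 in flight, 7.32 in the ground control and 8.28 in the transport control. In dys-1 the unflown values were 7.25 and 7.57, the lowest of the 3 strains in each unflown condition. The flown arrays were thus above the unflown ones in dys-1 and below them in both other strains. Both flown dys-1 arrays lay above all the others, as was the case for 2.73% of all genes, and flown arrays on opposite sides in different strains were seen in 9.5% of all genes.

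The flight effect on lys-3 in dys-1 exceeded that in the wild type by 2.88 ± 0.46 log2 units (SE), which did not pass over all genes (limma adjusted p = 0.463). For this interaction limma called 0 of the 10 genes and 0% of all genes, with 2 of the 10 (lys-3 and lys-8) and 2.29% of all genes at an unadjusted p under 0.05. For the same interaction in ced-1 it called 0 of the 10 and 0% of all genes, with 0 of the 10 and 3.08% of all genes at an unadjusted p under 0.05. Both interactions pool ground and transport control as unflown, so their spread holds the difference between these conditions. In both, the SE was 2.05 for lys-4, 1.87 for ilys-5, 1.67 for lys-5 and 1.28 for lys-6. For these genes the 0 therefore cannot show that the flight effect was alike in the strains. Over all conditions lys-3 was 1.14 ± 0.49 higher in dys-1 than in the wild type (SE, not called). Without the dys-1 static array that value was 0.69, and without the dys-1 centrifuge array 0.62. Between dys-1 and the wild type 0 of the 10 genes and 0% of all genes were called, with 2 of the 10 (lys-2 and lys-3) and 14.9% of all genes at an unadjusted p under 0.05. Between ced-1 and the wild type 0 of the 10 genes and 0% of all genes were called, with 0 of the 10 and 5.29% of all genes at an unadjusted p under 0.05.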

How the data were processed

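Total RNA of 12 samples, labelled with Cy3, was measured on single-colour NimbleGen arrays. Per the submitters' processing notes the authors used RMA, whose version is not stated. It corrects background, makes arrays alike in distribution and gives 1 value per probe set, which hides any change in the amount of RNA per worm. The deposited files give a linear intensity for 23187 features. The series value table holds the deposited intensity of 18185 of them and differs by at most 1.3e-06 on the log2 scale.

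Log2 values were taken with no pseudocount and averaged per WormBase gene, giving 20018 genes. The RefSeq gene table gave symbols to 19428 genes, and the array's own names were kept for 590. No genome build is named for the array, so no coordinates are given.

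A linear model of condition plus strain was fitted to all genes (limma 3.58.1, R 4.3.3, 6 residual degrees of freedom). Interactions used strain, flight and their product. P-values were adjusted by Benjamini-Hochberg over 20018 genes, and a gene was called at an adjusted p under 0.05. The number of arrays limits the precision. The strain block comes from the labels, since the same strains recur in every condition. Correlations between arrays of 1 strain, as deviations from condition means, ran from −0.124 to 0.468 over 18 pairs. The procedure was tested on simulated data.

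The 10 lysozyme genes, the gene lists and the markers were chosen with earlier results of these data known. Named were all 10 genes, listed genes that were called (at most 4 a list, by size) and the 5 genes nearest in pattern to each of the 3 most variable lysozymes. Groups follow the labelled condition. Alternatives were quantile normalization, median centring, an offset of 50, a filter on dim genes, the brightest feature of a gene, no strain block, trended and robust variance, and each array left out.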

Additional observations from a re-analysis of the deposited data

Results flagged for a closer look

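lys-3 and lys-8 were picked out because the flown arrays of 1 strain lay above its unflown arrays and those of another strain lay below, with 2 arrays on each side. Such a split was seen in 9.5% of all genes. For lys-3 the flown mean minus the unflown mean was 1.98 log2 units in dys-1, −0.90 in the wild type and −0.96 in ced-1. For lys-8 it was 0.30 in the wild type and −0.67 in dys-1. Tested as an interaction over all genes, neither difference passed (limma adjusted p = 0.463 for lys-3 and 1 for lys-8).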

How the results depend on the processing

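Each count of the 10 lysozymes called stayed within 1.5 times its value in all 12 comparisons, over 7 changes of processing and 12 arrays left out in turn (without the strain block the interactions could not be fitted). With no replicate block, 4 were called in the transport control against the carried conditions and 3 in static flight against the transport control. With single arrays left out, the count ran from 4 to 5 for the transport control against the carried conditions, 3 to 5 for static flight and for the centrifuge against the transport control, and 3 to 4 for flown against unflown. The counts of 0 stayed at 0. Of 774 recomputed log2 differences, 755 kept their side of the threshold and 0 changed sign. The others concerned lys-6 (quantile normalization, an offset of 50 or no strain block gave 1.00, 0.82 and 1.08 in static flight against the transport control, limma adjusted p = 0.0731, 0.0747 and 0.07), daf-2 (no strain block, limma adjusted p = 0.093), and the single arrays named above for lys-6, lys-7, ilys-3, ilys-4 and daf-2; the cause was not tested. With an offset of 50 the difference of lys-5 was −2.49 and that of lys-6 was −1.33. Dim genes, lys-10 and lys-3 outside flown dys-1 among them, have few units of intensity over the lowest values, which limits what their differences can show.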

Other observations

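The genes whose pattern lay nearest to that of lys-3 were looked up after its values were seen, and are given as values only. B0416.3 (RMS difference 0.32 log2 units over 12 arrays) was at 9.47 and 9.84 in flown dys-1 worms and at 6.85 to 7.99 on the other 10 arrays. fat-5, which encodes a palmitoyl-CoA desaturase of fat metabolism, was nearly as close (0.35), at 12.72 and 13.21 against 10.14 to 11.70. F48G7.4 was at 9.99 and 10.36 against 7.07 to 9.13, F45D3.2 at 10.84 and 11.22 against 8.75 to 10.04, and K12C11.3 at 10.09 and 10.34 against 8.18 to 9.76. Over all genes, 23 (0.115%) had both flown dys-1 arrays above the other 10 by at least as large a gap as lys-3.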
